A study of Mus musculus with 24 samples.

Results

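Spleen-derived CD11b+ cells were compared between 2 weeks and 1 week after myocardial infarction (MI), on 6 of the 24 arrays of the series. These arrays were chosen by their labels as the MI 1 week and MI 2 weeks samples of each genotype (WT, HDC-KO, STAT6-KO), which gave 3 pairs of arrays, 1 for each genotype. The mice were male, on the Balb/C background and 10 weeks old according to the methods. HDC-KO mice lack histidine decarboxylase, the enzyme that makes histamine. STAT6-KO mice lack STAT6, the transcription factor that carries interleukin-4 and interleukin-13 signals. Each group had 5 mice but only 1 array, and whether an array held the RNA of 1 mouse or of several is not given in the sources used here. The spread between mice could therefore not be measured, and every p-value below measures how far the difference varied between the genotypes. How the splenic cells were sorted for the arrays is not given in the sources used here. The values are spot intensities from one-colour arrays. The level of a gene is the log2 intensity minus the 75th percentile of its array, and a difference is the level at 2 weeks minus the level at 1 week.

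CD11b, the product of Itgam, is an integrin subunit carried by neutrophils, monocytes, and macrophages, and also by natural killer (NK) cells and by some B and T cells. The spleen holds follicles of B and T cells, and a red pulp rich in macrophages where myeloid cells can also be made and stored. After MI it is known as a source of monocytes that enter the heart. Lymphocyte genes, granule genes of developing neutrophils, and cell division genes were therefore followed as lists, together with markers of other cells that a spleen preparation could hold. In RNA from sorted cells, fewer cells of a type and less RNA per cell cannot be told apart.

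The sort and the labels were checked on single genes. Itgam had levels of 4.83, 4.31, and 4.23 at 1 week in WT, HDC-KO, and STAT6-KO, and of 4.31, 3.56, and 4.11 at 2 weeks. It was thus lower at 2 weeks in all 3 genotypes, by 0.47 ± 0.32 on the log2 scale (SD, n = 3 pairs), with an adjusted p of 0.410. Hdc had levels of 1.76 and 1.67 in HDC-KO and of 4.12 to 4.73 in the other 4 arrays. On 2 of its 3 probes Stat6 lay between -1.72 and -0.98 in STAT6-KO and between -0.43 and 0.76 in the other 4 arrays. On the third, brightest probe the genotypes hardly separated (2.34 and 2.44 against 2.58 to 2.92). Xist, which is transcribed from an inactive X chromosome, was brighter in the HDC-KO pair (-3.31 and -2.05) than on the other 4 arrays (-7.31 to -5.86). The methods give males only. The Y-linked genes Eif2s3y, Ddx3y, and Uty were well above background on all 6 arrays. Eif2s3y had 1.42 and 0.86 in the HDC-KO pair and 2.06 to 2.35 on the other 4 arrays. The part of these sex-linked genes in the results was not tested.

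The share of spots detected above background was higher at 2 weeks in each genotype (70.4 and 75.5% in WT, 77.7 and 79.0% in HDC-KO, 75.7 and 77.4% in STAT6-KO), and its part in the results was not tested. Each pair lay on 1 slide, with the 1 week and the 2 weeks array in the same positions on every slide, so that time after MI and position on the slide cannot be told apart. The scaling value of the 6 arrays, their 75th percentile, ranged from 1587 to 2461, and the number of arrays limits the precision.

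Over all genes, no single gene passed the test. Of 25733 genes tested, limma with genotype as a block called 0 higher (0%) and 0 lower (0%) at an adjusted p under 0.05, and the lowest adjusted p was 0.174. At an unadjusted p under 0.05 the counts were 1856 higher and 1296 lower, and the methods' t-test, unpaired, called 0 and 0 genes after Benjamini-Hochberg adjustment. In the fit over all 11 spleen arrays, which gives the same differences but takes its error from the control and MI 4 weeks arrays as well, 318 of 26474 genes were called higher (1.2%) and 13 lower (0.0491%). Every one of the 318 was higher in all 3 genotypes, and every one of the 13 lower. Since this fit's difference is the mean of the same 3 pair differences, that agreement is no independent support for the calls. Without the library labelled STAT6-KO MI 4 weeks, where Stat6 had levels of 0.73 and 0.20 on the 2 probes that separate the genotypes, 223 genes (0.844%) were called higher and 14 (0.053%) lower, and 222 genes were called in both fits. An adjusted p "on 11 arrays" below is that of the larger fit. Since the calls depend on it, genes are described as higher or lower by their measured values.

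By sign alone, 4652 genes (18.1%) were higher at 2 weeks in all 3 genotypes and 4768 (18.5%) were lower in all 3. Differences of at least 2-fold in every genotype ran mostly one way, with 234 genes higher (0.909%) and 19 lower (0.0738%), against 61 and 10 after normexp background correction. The median difference over all genes was 0.03 in WT, 0.00 in HDC-KO, and -0.04 in STAT6-KO. Across 25651 genes the differences of WT and HDC-KO correlated with r = 0.504, those of WT and STAT6-KO with r = 0.226, and those of HDC-KO and STAT6-KO with r = 0.16. Genes share arrays and are not independent, so these coefficients are descriptions.

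**Figure D1:**
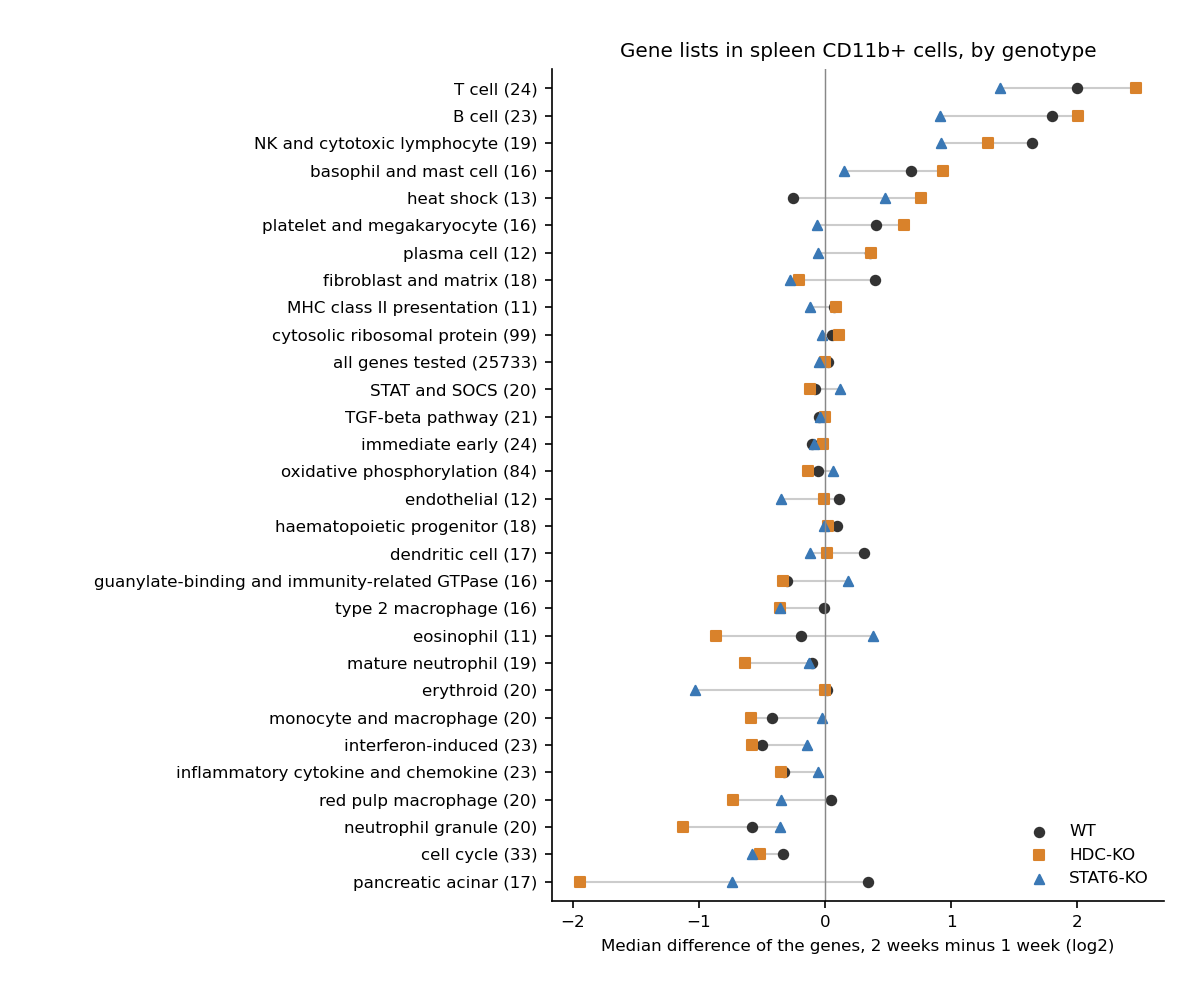
Median difference (2 weeks minus 1 week, log2, x axis) over the genes of each list (y axis, number of genes on the array in brackets) in WT (circles), HDC-KO (squares), and STAT6-KO (triangles), with a grey line spanning the 3 genotypes. The T cell list (2.00, 2.47, and 1.39) lies furthest to the right, and the all-gene medians lie near 0.

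T cell genes were higher at 2 weeks in all genotypes. Of the 24 genes on the list 23 were higher in all 3 pairs, beside 18.1% of all genes, and 18 were at least 2-fold higher in all 3, beside 0.909%. All lists used here were chosen with earlier results of these data known, so their contrasts with all genes are descriptions only. The median difference was 1.99, with 2.00 in WT, 2.47 in HDC-KO, and 1.39 in STAT6-KO, beside medians between -0.04 and 0.03 for all genes. None passed on 6 arrays. On 11 arrays 18 of the 24 were called and 18 without STAT6-KO MI 4 weeks, beside 1.2% and 0.844% of all genes called higher. Summed over the list, the signal in units of the 75th percentile was 20.6 at 1 week and 62.7 at 2 weeks in WT, 25.3 and 109.6 in HDC-KO, and 25.9 and 61.7 in STAT6-KO.

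The list ran from surface markers to the signalling chain behind the T cell receptor. Thy1, a surface glycoprotein of T cells, had levels of 1.36, 2.42, and 2.31 at 1 week in WT, HDC-KO, and STAT6-KO, and of 3.71, 4.28, and 3.73 at 2 weeks. Cd2, an adhesion receptor of T and NK cells, had 1.16, 1.87, and 2.00 at 1 week and 3.14, 3.85, and 3.34 at 2 weeks. The mean differences of Thy1 and Cd2 were 1.88 ± 0.47 and 1.77 ± 0.37 (SD, n = 3 pairs). Their adjusted p was 0.174 for each on 6 arrays, and 0.0114 and 0.0129 on 11. Lck, the kinase that starts signalling from the receptor, had levels of 1.09, 1.5, and 1.41 at 1 week and of 3.22, 4.00, and 3.14 at 2 weeks. Its mean difference was 2.12 ± 0.38, or 4.35-fold (adjusted p = 0.174, and 0.0114 on 11 arrays). Lat, the membrane adaptor further down the same chain, had -1.30, -0.16, and -0.32 at 1 week and 1.08, 2.29, and 1.61 at 2 weeks. The difference of Lat, 2.25 ± 0.28 or 4.77-fold, had the lowest adjusted p of the list on 11 arrays, 0.00940.

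The co-receptor genes of the CD8 and CD4 lineages differed in size. Cd8a had levels of -3.25, -2.85, and -2.72 at 1 week and of -0.96, 0.13, and -1.01 at 2 weeks, a difference of 2.33 ± 0.63 (1.66 with normexp). Cd8b1, which encodes the partner chain, had -3.89, -3.92, and -3.89 at 1 week and -1.68, -0.46, and -1.70 at 2 weeks, a difference of 2.62 ± 0.73 or 6.15-fold (1.62 or 3.07-fold with normexp). The Cd8b1 levels of the 3 genotypes lay close together at 1 week, and at 2 weeks HDC-KO was the highest for both genes. Cd4, which macrophages and dendritic cells can also carry, had 1.29, 1.29, and 1.21 at 1 week and 1.56, 1.99, and 1.17 at 2 weeks, and was the 1 gene of the list that was not higher in all 3 pairs (0.31 ± 0.37, adjusted p = 0.660 on 11 arrays). Cd3d, a chain of the receptor complex, lay between these, with 2.59, 1.25, and 1.60 at 1 week and 2.88, 2.62, and 2.24 at 2 weeks (0.77 ± 0.55, adjusted p = 0.463 on 11 arrays). Cd4 was picked out after its values were seen.

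The promoter of Lck is shown because Lck is the brightest gene with a promoter in the table among the T cell genes at least 2-fold higher in every pair, and because it holds the core letters read by RUNX factors. RUNX proteins are transcription factors of the T cell lineage. The sequence is RefSeq's, build GRCm38.p6, chr4:129573592-129573891 on the minus strand, around the listed start, with TGTGGT in capitals.
Lck: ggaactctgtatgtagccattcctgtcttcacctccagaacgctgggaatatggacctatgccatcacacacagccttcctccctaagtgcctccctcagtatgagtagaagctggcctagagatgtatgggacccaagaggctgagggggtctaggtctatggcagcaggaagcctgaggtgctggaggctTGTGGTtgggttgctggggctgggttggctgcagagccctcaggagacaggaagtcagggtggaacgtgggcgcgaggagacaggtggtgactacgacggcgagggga
Of the 24 genes 16 had a promoter in the table, and 4 of these (25%) held TGTGGT on either strand, beside 16.9% of 27025 promoters. The share was 23.5% for the B cell list and 29.4% for the neutrophil granule list, so it was not particular to T cell genes. A match describes letters and not binding.

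B cell genes were higher as well. Of 23 genes on the array 21 were higher in all 3 pairs, beside 18.1% of all genes, and 9 at least 2-fold, beside 0.909%. The median difference was 1.60, with 1.80 in WT, 2.00 in HDC-KO, and 0.91 in STAT6-KO. On 11 arrays 13 were called, and 6 without STAT6-KO MI 4 weeks, beside 1.2% and 0.844% of all genes called higher. Cd79b, a signalling chain of the B cell receptor, had levels of 3.31, 3.44, and 3.93 at 1 week and of 5.00, 4.93, and 4.84 at 2 weeks, a difference of 1.37 ± 0.41 (adjusted p = 0.191, and 0.0516 on 11 arrays). Ms4a1, which encodes CD20, had 2.45, 2.23, and 3.17 at 1 week and 4.26, 4.23, and 4.24 at 2 weeks, a difference of 1.63 ± 0.49 or 3.09-fold (adjusted p = 0.0382 on 11 arrays). For both, the 2 weeks levels of the 3 genotypes lay close together, whereas at 1 week STAT6-KO was the highest. Spib, a transcription factor of B cells and plasmacytoid dendritic cells, had 2.48, 2.90, and 3.19 at 1 week and 4.58, 4.55, and 4.40 at 2 weeks, a difference of 1.65 ± 0.44 (adjusted p = 0.0201 on 11 arrays). Blnk, an adaptor behind the B cell receptor, differed by 1.16 ± 0.44 (adjusted p = 0.0904 on 11 arrays).

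The exceptions and extremes of the B cell list were picked out after their values were seen. Cd22, an inhibitory receptor, had 1.43, 1.07, and 0.95 at 1 week and 1.13, 0.80, and 1.09 at 2 weeks, and Cd180 had -2.02, -2.70, and -3.78 and then -2.41, -2.96, and -3.72. Neither was higher in all 3 pairs. Cxcr5, the chemokine receptor that guides B cells into follicles, had the most even difference among the genes called (1.85, 2.09, and 1.71). Genes of plasma cells, the antibody-secreting end of the lineage, had a median of 0.19. Of 12 on the array 4 were higher and 1 lower in all 3 pairs, beside 18.1% and 18.5% of all genes. None of them was called in either fit. Jchain, the joining chain of secreted antibodies, had 4.33, 4.03, and 4.88 at 1 week and 4.96, 4.28, and 4.63 at 2 weeks (0.20 ± 0.44), and Xbp1, the secretory regulator, differed by 0.01 ± 0.10. Pou2af1, a B cell coactivator, differed by 1.24, 1.32, and 0.68, and Eaf2, an elongation factor partner, by -1.13, -0.43, and -0.96. Of 11 genes for antigen presentation by MHC class II, where the median was 0.06, the 1 called on 11 arrays was H2-Eb2, with -3.51, -3.62, and -3.49 at 1 week and -1.90, -1.98, and -2.09 at 2 weeks (adjusted p = 0.0123). H2-Ab1 and H2-Eb1, far brighter, differed by -0.12 ± 0.07 and -0.01 ± 0.11.

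NK and cytotoxic lymphocyte genes followed the same direction with a smaller median, 1.22 over 19 genes (1.64 in WT, 1.29 in HDC-KO, and 0.92 in STAT6-KO). Of these, 14 were higher in all 3 pairs, 9 by at least 2-fold, beside 18.1% and 0.909% of all genes. On 11 arrays 8 were called, beside 1.2% of all genes called higher. Gzma, a protease of cytotoxic granules, had levels of 3.1, 2.99, and 1.60 at 1 week and of 4.79, 4.27, and 3.32 at 2 weeks. Its difference was 1.56 ± 0.24 or 2.96-fold (adjusted p = 0.0449 on 11 arrays). Il2rb, a shared subunit of the interleukin-2 and interleukin-15 receptors, had -0.55, -0.07, and -0.53 at 1 week and 1.69, 2.06, and 0.84 at 2 weeks, a difference of 1.91 ± 0.47 (adjusted p = 0.0114 on 11 arrays). Nkg7, a granule membrane protein, differed by 0.78 ± 0.53, and Klrg1, a receptor of mature effector cells, by 1.12 ± 0.66. These 2 were higher in all 3 pairs but were not called in either fit. Stat4, which carries interleukin-12 signals in T and NK cells, was the 1 gene called among 20 STAT and SOCS genes, with -1.15, -0.70, and -0.45 at 1 week and 0.05, 0.83, and 0.42 at 2 weeks (adjusted p = 0.0189 on 11 arrays). The median of those 20 genes was -0.03.

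**Figure D2:**
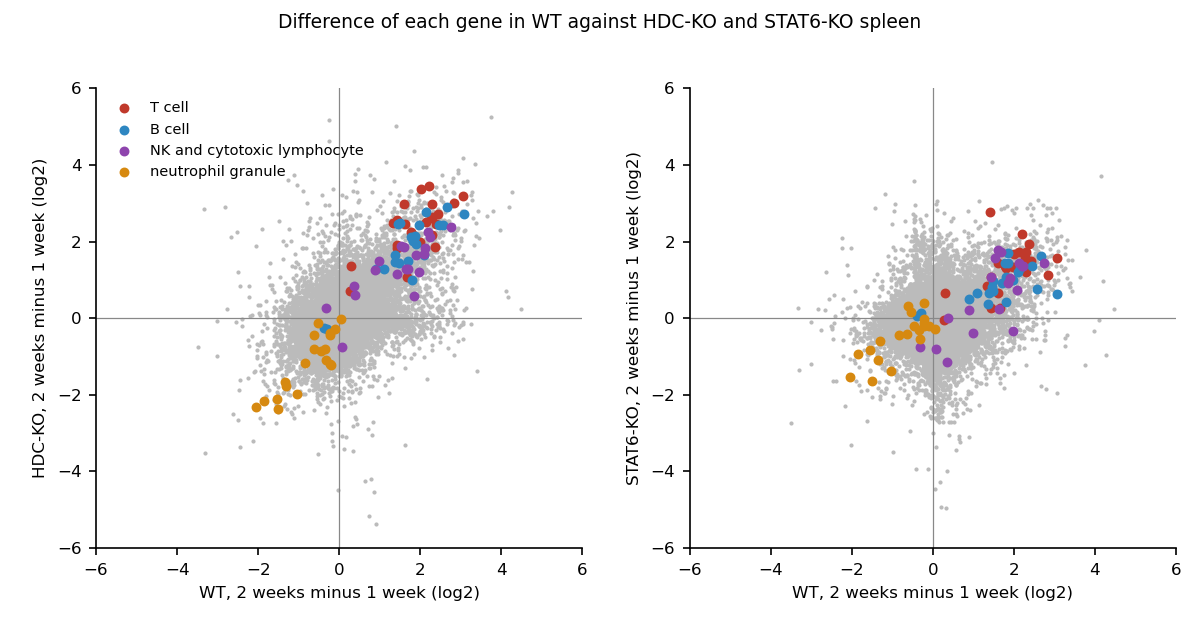
Difference of each gene (2 weeks minus 1 week, log2) in WT (x axis) against HDC-KO (left, y axis) and STAT6-KO (right, y axis), 1 grey point a gene, with 4 lists coloured. Both axes end at 6 and at -6, which leaves out 9 genes. The T cell, B cell, and NK genes lie mostly in the upper right of both panels, and the neutrophil granule genes mostly in the lower left.

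The other spleen arrays show where the 2 time points lie. The median level of the T cell list in WT was 0.16 in the control, -1.88 at 1 week, 0.60 at 2 weeks, and 0.14 at 4 weeks. In STAT6-KO it was 0.86, -0.65, 0.65, and 0.52 in the same order, and in HDC-KO, without a usable control, -0.86, 1.98, and 1.34 from 1 to 4 weeks. The 1 week array was thus the lowest of its genotype in all 3, and the 2 weeks array was the highest in WT and HDC-KO. For B cell genes the WT medians were 0.48, -0.01, 1.62, and 0.85, those of STAT6-KO 1.21, 0.74, 1.39, and 1.84, and those of HDC-KO 0.19, 2.14, and 1.92 from 1 to 4 weeks. For NK genes the 1 week array was again the lowest in each genotype (-1.73, -1.68, and -2.07 in WT, HDC-KO, and STAT6-KO). With 1 array a point these positions carry no test.

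**Figure D3:**
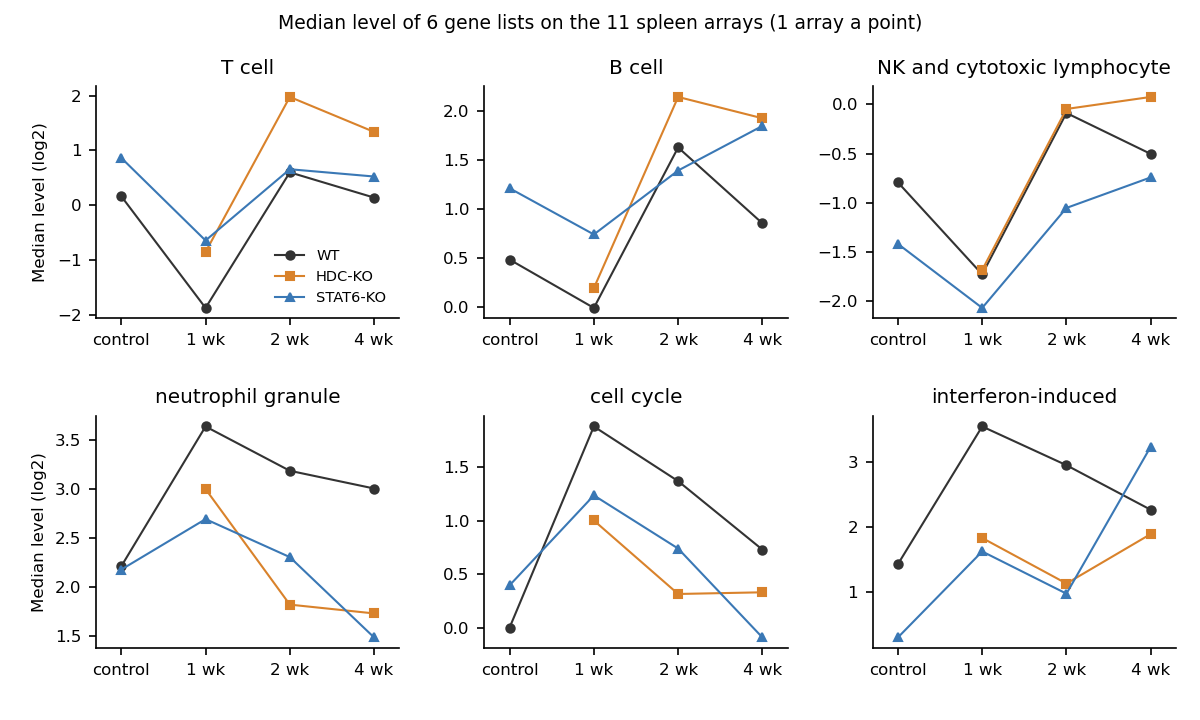
Median level of 6 gene lists (y axis, log2 relative to the 75th percentile) on the 11 usable spleen arrays, by time point (x axis, control and weeks after MI) and genotype. The T cell, B cell, and NK medians are lowest at 1 week in every genotype, and the granule and cell cycle medians are highest there.

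Granule genes of neutrophils moved the other way. Of 20 genes 16 were lower at 2 weeks in all 3 pairs, beside 18.5% of all genes, and 4 were at least 2-fold lower in all 3, beside 0.0738%. The median difference was -0.50, with -0.58 in WT, -1.12 in HDC-KO, and -0.36 in STAT6-KO. On 11 arrays 2 were called lower, and 4 without STAT6-KO MI 4 weeks, beside 0.0491% and 0.053% of all genes. Neutrophil granules are filled in order as the cell matures, with azurophil granules at the promyelocyte stage and specific granules later.

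The genes of azurophil granules had the largest differences. Elane, neutrophil elastase, had levels of 3.29, 2.66, and 1.96 at 1 week and of 1.24, 0.35, and 0.43 at 2 weeks. Its difference was -1.96 ± 0.39 (adjusted p = 0.174, and 0.0476 on 11 arrays). Prtn3, proteinase 3, had -0.66, -1.01, and -1.56 at 1 week and -2.16, -3.37, and -3.19 at 2 weeks, a difference of -1.83 ± 0.46 (adjusted p = 0.0251 on 11 arrays). Mpo, myeloperoxidase, had 4.04, 3.51, and 3.48 at 1 week and 2.69, 1.84, and 2.40 at 2 weeks, and Ctsg, cathepsin G, differed by -1.04, -1.99, and -1.37. Mpo and Ctsg were not called on 11 arrays (adjusted p = 0.339 and 0.439), and without STAT6-KO MI 4 weeks their adjusted p was 0.0359 and 0.0680. In that left-out array Mpo had a level of 0.37 and Elane of -0.92, the lowest of the 11 spleen arrays. Grouped after the values were seen, the 5 azurophil genes (these and Prss57) were lower in all 3 pairs, with means between -1.96 and -1.22 and a median of -1.46.

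The promoters of the 3 azurophil genes that held the letters GAGGAAGT, which the myeloid factor PU.1 can read, are shown for comparison. They are RefSeq's, build GRCm38.p6, all on the plus strand, with GAGGAAGT in capitals, and lie at chr10:79886062-79886361 (Elane), chr10:79879417-79879716 (Prtn3), and chr11:87793534-87793833 (Mpo). Elane and Prtn3 are neighbours on chromosome 10.
Elane: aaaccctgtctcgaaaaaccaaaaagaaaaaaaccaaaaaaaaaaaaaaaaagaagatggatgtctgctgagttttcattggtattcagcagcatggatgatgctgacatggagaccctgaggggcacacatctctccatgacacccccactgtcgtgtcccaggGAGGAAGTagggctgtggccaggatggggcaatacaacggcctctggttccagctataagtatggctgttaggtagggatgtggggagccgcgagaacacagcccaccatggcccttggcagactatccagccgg
Prtn3: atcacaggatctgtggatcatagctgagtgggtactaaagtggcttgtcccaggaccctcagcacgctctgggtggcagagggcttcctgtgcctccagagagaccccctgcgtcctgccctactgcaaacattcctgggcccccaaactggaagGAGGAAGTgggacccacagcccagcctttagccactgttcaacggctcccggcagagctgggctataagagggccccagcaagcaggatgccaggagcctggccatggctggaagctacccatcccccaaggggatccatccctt
Mpo: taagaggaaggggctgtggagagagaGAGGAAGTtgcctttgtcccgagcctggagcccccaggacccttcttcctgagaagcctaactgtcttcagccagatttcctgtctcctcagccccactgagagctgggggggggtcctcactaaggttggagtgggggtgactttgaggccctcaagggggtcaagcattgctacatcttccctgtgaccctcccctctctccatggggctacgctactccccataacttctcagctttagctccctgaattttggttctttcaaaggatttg
Among 17 granule genes with a promoter, 6 (35.3%) held GAGGAAGT on either strand, beside 3.28% of 27025 promoters. The remaining carriers, Itgb2l, Ltb4r1, and Mmp8, were not in the azurophil group. Of that group Ctsg held no match, and Prss57 had no promoter in the table.

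Genes of later granules and of mature neutrophils had smaller medians than the azurophil genes. Grouped after the values were seen, 9 genes of specific and gelatinase granules had means between -0.82 and -0.08 and a median of -0.34, with 7 lower in all 3 pairs. Cebpe, Fcnb, Ms4a3, Itgb2l, Ltb4r1, and Lyz2 of the same list were put in neither group. Ltf, lactoferrin, had levels of 6.26, 5.48, and 5.77 at 1 week and of 6.16, 5.21, and 5.57 at 2 weeks (-0.19 ± 0.09), and Camp, the cathelicidin precursor, differed by -0.08 ± 0.18. Hp and Chil3 differed by -0.26 ± 0.17 and -0.28 ± 0.10. These 4 were the brightest genes of the list. Among 19 mature neutrophil genes 9 were lower in all 3 pairs, beside 18.5% of all genes. Their median was -0.30 (-0.10 in WT, -0.64 in HDC-KO, and -0.13 in STAT6-KO). S100a8 and S100a9, the subunits of calprotectin, differed by -0.07 ± 0.09 and -0.06 ± 0.08, Csf3r, the receptor of granulocyte colony-stimulating factor, by -0.15 ± 0.11, and Il1b by -0.05 ± 0.09. None of the 19 was called on 11 arrays.

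Most cell division genes were lower at 2 weeks in each genotype. Of 33 genes 27 were lower in all 3 pairs, beside 18.5% of all genes, and 0 were called on 6 or on 11 arrays. The median was -0.52 (-0.33 in WT, -0.52 in HDC-KO, and -0.58 in STAT6-KO). Grouped after the values were seen, 18 genes of mitosis had a median of -0.63 with 17 lower in all 3 pairs, and 15 genes of S phase a median of -0.28 with 10 lower in all 3. Mki67, the proliferation antigen, had levels of 3.47, 2.22, and 2.91 at 1 week and of 2.72, 1.16, and 2.35 at 2 weeks (-0.79 ± 0.25, adjusted p = 0.241). Birc5, survivin, which acts at the spindle midzone, had 3.67, 2.85, and 3.12 and then 3.24, 2.17, and 2.66 (-0.53 ± 0.14). The genotypes kept their order, with WT highest and HDC-KO lowest at both times, so that the levels overlapped between weeks although each pair differed the same way. Mcm6, a subunit of the replicative helicase, differed by -0.28 ± 0.36, and Pcna, the replication clamp, by -0.04 ± 0.09.

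The promoters of Ccnb2 (cyclin B2) and Cdc20 (an activator of the anaphase-promoting complex) are shown because mitotic genes are known for CCAAT boxes and a CHR element (TTTGAA), both in capitals. Both genes were picked outside the naming rule and hold both elements, whereas Birc5, described above, held neither. The sequences are RefSeq's, build GRCm38.p6, on the minus strand, at chr9:70421505-70421804 and chr4:118437294-118437593.
Ccnb2: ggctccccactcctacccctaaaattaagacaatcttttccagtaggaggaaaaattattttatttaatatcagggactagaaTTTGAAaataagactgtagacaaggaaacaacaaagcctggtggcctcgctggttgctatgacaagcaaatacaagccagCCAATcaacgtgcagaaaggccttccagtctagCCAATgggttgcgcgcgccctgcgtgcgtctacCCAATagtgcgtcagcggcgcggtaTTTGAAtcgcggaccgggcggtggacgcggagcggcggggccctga
Cdc20: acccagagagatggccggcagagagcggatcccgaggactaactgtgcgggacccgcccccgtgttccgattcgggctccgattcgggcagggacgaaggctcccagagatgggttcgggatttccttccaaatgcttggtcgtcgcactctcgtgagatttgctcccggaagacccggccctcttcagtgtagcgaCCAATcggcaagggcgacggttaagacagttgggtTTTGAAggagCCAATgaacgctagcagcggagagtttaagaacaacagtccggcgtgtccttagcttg
Of 28 cell cycle genes with a promoter in the table, 21 (75%) held CCAAT and 12 (42.9%) held TTTGAA on either strand, beside 37.9% and 18.1% of 27025 promoters. Ccnb2 had levels of 2.34, 1.22, and 1.79 at 1 week and of 1.77, 0.46, and 1.05 at 2 weeks. Cdc20 had 3.14, 1.99, and 2.54 and then 2.60, 1.24, and 2.02, and neither gene was called (adjusted p = 0.231 and 0.267).

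Interferon-induced genes were lower in most pairs too. Of 23 genes 19 were lower in all 3, beside 18.5% of all genes, and 0 were called in either fit. The median was -0.40 (-0.50 in WT, -0.58 in HDC-KO, and -0.14 in STAT6-KO). Rtp4 had levels of 5.19, 4.04, and 3.60 at 1 week and of 4.73, 3.67, and 3.16 at 2 weeks, an even difference of -0.42 ± 0.04. Isg15, a ubiquitin-like protein, had 5.82, 4.16, and 4.02 and then 5.54, 3.54, and 4.26, and so was higher at 2 weeks in STAT6-KO. Oas2, which senses double-stranded RNA, differed by -0.24 ± 0.31 and Ifi27l2a by -0.06 ± 0.04. WT lay above both knockouts at each time for these 4 genes. At 4 weeks the median level of the list was 2.26 in WT, 1.89 in HDC-KO, and 3.24 in STAT6-KO, against 2.95, 1.12, and 0.97 at 2 weeks.

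The monocyte and macrophage list had lower medians at 2 weeks in WT and HDC-KO and hardly differed in STAT6-KO. Of its 20 genes 11 were lower in all 3 pairs, beside 18.5% of all genes. The median was -0.34 (-0.42 in WT, -0.59 in HDC-KO, and -0.02 in STAT6-KO). Csf1r, the receptor of macrophage colony-stimulating factor, had levels of 5.64, 5.40, and 5.56 at 1 week and of 5.44, 5.28, and 5.41 at 2 weeks (-0.15 ± 0.04). Ctss, Ly6c1, and Adgre1 differed by -0.13 ± 0.04, -0.14 ± 0.17, and -0.27 ± 0.22. Red pulp macrophages recycle iron from old erythrocytes. Their 20 genes had a median of -0.41, but this was 0.05 in WT, -0.73 in HDC-KO, and -0.35 in STAT6-KO. Vcam1, an adhesion molecule, was lower in all 3 pairs (-0.48 ± 0.10), whereas Slc40a1, the iron exporter, was higher in WT (4.89 and 5.20) and lower in HDC-KO (5.24 and 4.89) and STAT6-KO (5.61 and 5.41).

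Markers of erythroid and pancreatic acinar cells, which should lack CD11b, were also read. All 20 erythroid genes on the array were well above background, and their summed signal was 74.8 and 79.0 in WT, 70.2 and 57.0 in HDC-KO, and 136 and 86.9 in STAT6-KO at 1 and 2 weeks. Hba-a1, a haemoglobin chain, had 3.03, 3.73, and 5.12 at 1 week and 3.03, 2.66, and 4.19 at 2 weeks. The tail of the pancreas lies beside the spleen. Of 17 genes of its acinar cells, 14 were above background on all 6 arrays, and their median difference was 0.34 in WT, -1.95 in HDC-KO, and -0.74 in STAT6-KO. Amy2a5, amylase, had levels of -1.99, 0.89, and 0.97 at 1 week and of -1.26, -4.26, and 0.26 at 2 weeks. The part of both lists in the other results was not tested. Heat shock genes were lower in WT (median -0.26) and higher in HDC-KO (0.76) and STAT6-KO (0.47), and cytosolic ribosomal protein genes had a median of 0.04.

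A further 12 genes in each direction were chosen for naming, as those with a symbol, above background on all 6 arrays, whose weakest pair difference was the largest. None passed on 6 arrays (adjusted p between 0.174 and 0.293). Among those higher, Cd8a, Cd8b1, Lat, and Lck are on the T cell list. Gimap5, a GTPase needed for lymphocyte survival, had levels of -1.81, -1.42, and -1.32 at 1 week and of 0.18, 1.11, and 0.62 at 2 weeks, a difference of 2.15 ± 0.33 (adjusted p = 0.0114 on 11 arrays). Rgs13, a regulator of G protein signalling found in germinal centre B cells and mast cells, had -2.63, -4.94, and -5.11 and then -0.19, -2.08, and -3.12 (2.43 ± 0.43, 1.16 with normexp, adjusted p = 0.130 on 11 arrays). Dapl1 had the largest mean of the 24 named genes, with -3.68, -4.03, and -3.44 at 1 week and -0.63, 0.14, and -0.58 at 2 weeks, which is 10.3-fold (5.16-fold with normexp, adjusted p = 0.00940 on 11 arrays). Tdrp differed by 3.05 ± 0.77, Spin2c by 2.17 ± 0.30, Ppic, a cyclophilin, by 2.29 ± 0.89, and Slc16a5, of the monocarboxylate transporter family, by 2.25 ± 0.72. With normexp these 4 differed by 2.19, 0.95, 0.51, and 0.93. Adamts14, a metalloprotease that trims procollagen, had the smallest spread, with 1.84, 1.81, and 1.73 in WT, HDC-KO, and STAT6-KO. With normexp the mean was 1.18. On a second probe the mean difference was 0.81 for Adamts14, and for Slc16a5 it was -0.04.

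Among the 12 named lower genes were Elane, Prtn3, Mpo, and Ctsg, described above, and a pair of acute phase genes. Saa3, a serum amyloid A protein made by macrophages under inflammation, had levels of 1.40, 1.29, and -0.68 at 1 week and of -1.05, -2.07, and -2.31 at 2 weeks, a difference of -2.48 ± 0.86. Saa1 had 1.27, 1.01, and -0.63 at 1 week and -0.68, -1.61, and -1.72 at 2 weeks (-1.88 ± 0.76). On 11 arrays the adjusted p was 0.185 for Saa3 and 0.217 for Saa1. Since Saa genes are close in sequence, their probes could share signal. Iqgap3, a scaffold protein of dividing cells, differed by -1.36 ± 0.38 (adjusted p = 0.0379 on 11 arrays), and Mnd1, a recombination protein, by -1.73 ± 1.12, with -3.01 in WT and a mean of -1.09 without the WT pair. Plxdc2, a membrane protein, had 0.04, 0.48, and -0.24 and then -1.13, -1.25, and -2.19. Dpep2, a dipeptidase of leukotriene metabolism, differed by -1.18 ± 0.17. The olfactory receptor genes Olfr91 and Olfr787 differed by -1.81 ± 0.07 and -1.51 ± 0.40, at levels between -5.72 and -3.71 near the lower end of the arrays.

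**Figure D4:**
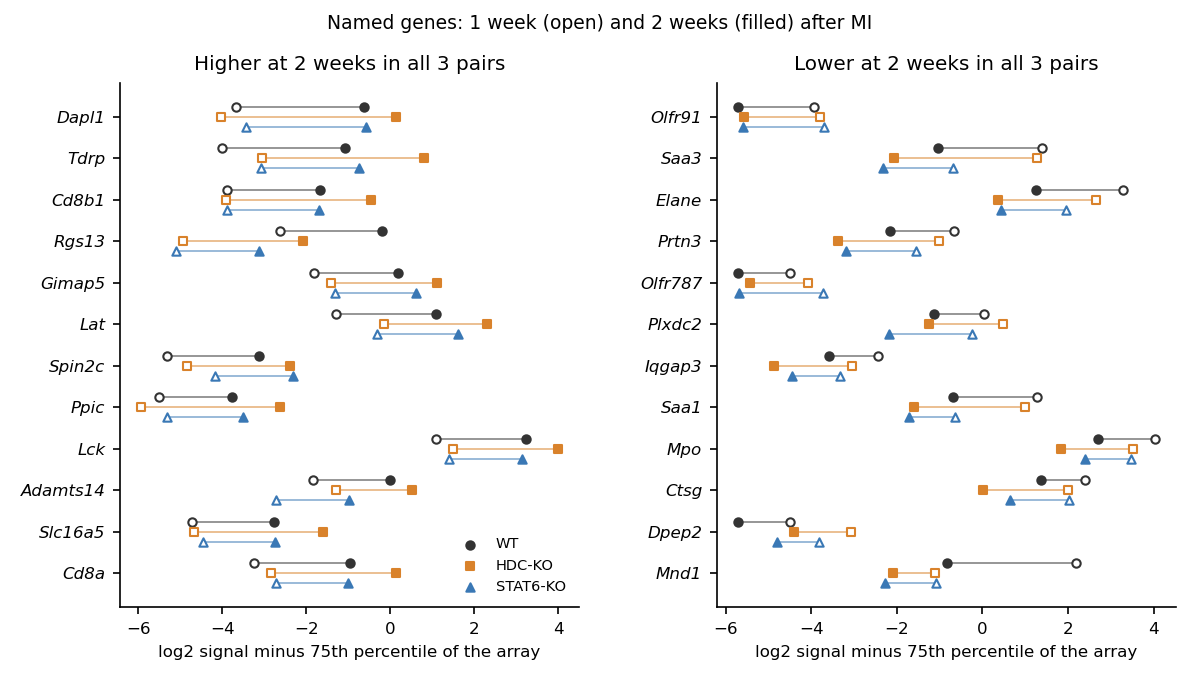
Level (x axis, log2 relative to the 75th percentile of the array) of the 24 named genes (y axis) at 1 week (open) and 2 weeks (filled) in WT, HDC-KO, and STAT6-KO, with a line joining the pair. The genes on the left are higher at 2 weeks in all 3 pairs and those on the right lower, with Dapl1 differing by 3.36 and Saa3 by -2.48 on average.

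In bone marrow the same time points could be compared in WT and HDC-KO (4 arrays). The B cell list was higher there as well, with medians of 2.39 in WT and 1.69 in HDC-KO, whereas the T cell list had -0.05 and 0.37. Cd8a had levels of -5.19 and -5.15 in WT and of -4.45 and -4.41 in HDC-KO bone marrow at 1 and 2 weeks, below all 6 spleen levels. Elane had 4.24 and 4.01 in WT and 5.49 and 4.63 in HDC-KO bone marrow, above all 6 spleen levels. When the spleen difference was tested against the bone marrow difference with limma on the 5 pair differences, 0 of 26952 genes were called in either direction (0%), with 960 higher and 637 lower in spleen at an unadjusted p under 0.05 and a lowest adjusted p of 0.136. For the T cell list the median of spleen minus bone marrow was 1.67, with 17 of 24 genes at an unadjusted p under 0.05, all higher in spleen. For the B cell list it was -0.44, although 4 of 23 genes were higher in spleen and 0 lower at that p. The tissue test had tissue as its only term and ignored that WT and HDC-KO gave both tissues, whereas STAT6-KO was in spleen alone. By genotype the B cell medians were 1.80 in spleen against 2.39 in bone marrow in WT, and 2.00 against 1.69 in HDC-KO. The STAT6-KO spleen median of 0.91 had no bone marrow partner.

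**Figure D5:**
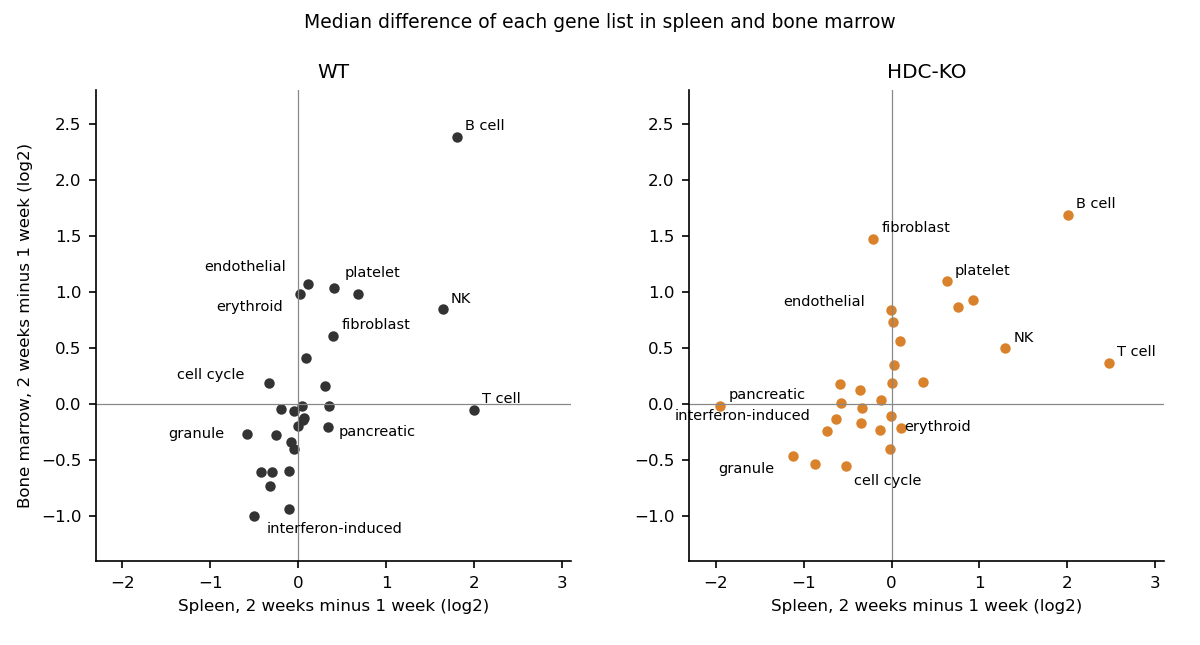
Median difference of each gene list (2 weeks minus 1 week, log2) in spleen (x axis) and bone marrow (y axis) for WT (left) and HDC-KO (right), 1 point a list. The B cell list is high on both axes (1.80 and 2.39 in WT), and the T cell list on the spleen axis alone (2.00 and -0.05 in WT).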

How the data were processed

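The authors deposited one-colour Agilent scanner files, in which the processed spot intensity is background-corrected and not normalized between arrays. Of 24 arrays 22 were usable, since 2 files were short (229 spots for the spleen control of HDC-KO, and 84 spots for STAT6-KO marrow at MI 1 week). Control spots and 3055 outlier spots were left out, the log2 intensity was centred on the 75th percentile of each array, and spots of 1 probe were averaged. A gene was read on the probe with the highest mean level over the 22 arrays and was tested where well above background on at least 2 of the 6 arrays. Differences were fitted with limma 3.58.1 in R 4.3.3, with genotype as a block (2 residual degrees of freedom, 2.42 prior), and adjusted after Benjamini-Hochberg over all genes. An exact sign-flip test of 3 pairs cannot go below p = 0.25. The slide equals the genotype block. The fit was tested on simulated data with independent normal errors drawn from its own model. That run cannot show how the fit behaves where genes vary together. Promoters are RefSeq's. The members and gene lists were chosen with earlier results of these data known. The 10-array fit was added after seeing the data. Genes named outside the rule in the text are the 4 brightest of each list, label checks, or said to be picked later.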

Additional observations from a re-analysis of the deposited data

Results flagged for a closer look

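The 31 genes checked were the 24 named genes and the genes with a symbol called lower on 11 arrays. Genes called higher there were checked only where named. In 5 of the 31, all 3 spleen pairs moved one way and both bone marrow pairs (WT and HDC-KO) the other. That pattern was shown by 12.6% of the 9764 genes whose 3 spleen pairs agreed in sign. The difference between the tissues did not pass for any of the 5 genes (limma on the 5 pair differences, which ignored that WT and HDC-KO gave both tissues). Cd8b1 differed by 2.21, 3.46, and 2.19 in spleen and by -0.62 and -0.59 in marrow (spleen minus bone marrow 3.225, adjusted p = 0.25). Slc16a5 differed by 1.96, 3.07, and 1.73 in spleen and by -0.62 and -0.39 in bone marrow (difference 2.759, adjusted p = 0.336). Plxdc2 differed by -1.17, -1.74, and -1.95 in spleen and by 0.71 and 0.74 in bone marrow (difference -2.346, adjusted p = 0.244). Cxcl14, a chemokine called lower on 11 arrays, differed by -1.26, -1.87, and -1.30 in spleen and by 1.66 and 2.12 in bone marrow (difference -3.364, adjusted p = 0.176). Rai14, also called lower on 11 arrays, differed by -0.85, -0.99, and -0.78 in spleen and by 1.06 and 0.97 in bone marrow (difference -1.885, adjusted p = 0.214).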

How the results depend on the processing

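The count of genes called, 0 in each direction, was 318 higher and 13 lower on 11 arrays, 223 and 14 on 10 arrays, and 421 and 44 with the methods' t-test at a fold over 2 and an unadjusted p under 0.05. Genes at least 2-fold higher in every pair numbered 234, against 61 with normexp background correction and 305 to 712 when 1 genotype was left out. Genes at least 2-fold lower numbered 19, against 10 with normexp, 12 among genes above background on all 6 arrays, and 51 to 112 when 1 genotype was left out. The causes were not tested. Over 360 values of the 24 named genes 0 changed sign and 31 passed the threshold, all in the fits on 11 and 10 arrays. The 0 was in part fixed in advance. These genes were chosen to differ the same way in every pair, so leaving out 1 genotype cannot reverse the mean. The fit on 11 arrays gives the same difference as the main fit. With normexp the sign could have changed and did not. Not all sizes held. With normexp 9 of the 24 moved by over 1.5-fold, all toward 0 and by the most for Ppic (2.29 to 0.51). Slc16a5 with the mean over its probes (1.11) and Mnd1 without the WT pair (-1.09) also moved by over 1.5-fold. List medians ranged from 1.67 to 2.17 for T cell, 1.44 to 1.91 for B cell, 0.98 to 1.49 for NK, -0.71 to -0.38 for granule, -0.56 to -0.37 for cell cycle, and -0.50 to -0.37 for interferon-induced genes. Of 450 values of 30 list medians 21 changed sign, none of these in the 6 lists just given. No paired analysis by replicate number was possible because the labels carry none, and the pairs used are genotypes.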
